A study of Mus musculus with 30 samples.

Results

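The nuclear receptor PPAR-alpha (gene Ppara) and the genes of fatty acid oxidation in its programme were described across 30 mouse livers. The set was named as 36 genes, and each was read from its probe sets annotated to 1 gene symbol, taking for each the brightest probe set by its mean across the 30 arrays. That gave values for 33 of the 36, out of 17097 genes measured in this way; Acsl1, Hadha and Bdh1 are not analysed here. The 33 comprise the receptor, 2 secreted products, 2 genes of uptake and binding, 5 of the carnitine shuttle, 10 of mitochondrial beta-oxidation, 8 of peroxisomal oxidation, 3 of peroxisome growth and import and 2 other targets.

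PPAR-alpha is a transcription factor of hepatocytes that binds fatty acids and related lipids and pairs with RXR at direct repeats of a hexamer in its target genes. In fasting it raises the enzymes that carry fatty acids into mitochondria on carnitine, shorten them there, and shorten very long or branched chains in peroxisomes. Products that leave the liver, such as the hormone Fgf21 and the lipase inhibitor Angptl4, belong to the same programme.

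Liver that was not tumour was taken from 5 groups of mice, each mouse giving 1 array. Prophylactic aspirin with clopidogrel, a blocker of the platelet receptor P2Y12, was given to 6 mice on CD-HFD. Sulindac, a cyclooxygenase inhibitor, was given to 10 mice on CD-HFD. Vehicle was given to 4 mice on CD-HFD that had HCC and fibrosis and to 5 on CD-HFD without HCC. Chow-fed healthy livers came from 5 mice, also listed as vehicle. CD-HFD is a choline-deficient high-fat diet used as a model of steatohepatitis leading to liver cancer, so every mouse but the 5 on chow carries the diet. The labels give no strain, age, sex, dose or collection time. Mice are called by their title numbers, with AspClo, Sulin, Veh_high (with HCC), Veh_low (without HCC) and Hlth for the groups. All values are log2 of the deposited intensity, and a difference is a difference of log2 means. Hepatocyte markers were high in all groups, with a mean over 6 of 6 markers of 12.33 to 12.76 in every mouse. In whole liver, fewer cells of a type and less RNA per cell cannot be told apart.

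Several mice stood apart before any comparison of the fatty acid genes. Xist, the RNA that coats the inactive X chromosome of females, was at 10.95 to 11.21 in 4 of the 6 mice given aspirin with clopidogrel (AspClo_58, AspClo_61, AspClo_63 and AspClo_64). It was at 4.56 and 4.80 in AspClo_62 and AspClo_60, and at 4.55 to 5.03 in the sulindac, vehicle and chow mice. The Y-linked Eif2s3y was at 4.14 to 5.21 in those 4 mice and at 8.37 to 9.14 in the other 26. A mean over 7 liver genes known to be higher in female mice was 9.29 to 9.60 in the Xist-high mice, 5.65 and 5.81 in the other mice given aspirin with clopidogrel, and 4.61 to 6.18 in the remaining groups. The aspirin and clopidogrel arm therefore differed from all other groups in sex-linked transcripts as well as in treatment, and for 4 of its 6 mice the treatment and these transcripts cannot be told apart. These lists and the split were chosen after the values were seen.

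Clock genes divided the mice along another line. Dbp, an output gene of the circadian clock, exceeded 7 in 5 of 6 mice given aspirin with clopidogrel, in 9 of 10 given sulindac, in 2 of 4 vehicle mice with HCC, in 0 of 5 without HCC and in 0 of 5 on chow. Among the vehicle and chow mice, Veh_low_794, Veh_low_1819, Hlth_1798 and Hlth_1807 lay nearer the mean of the other diet group than that of their own. That distance was taken over the genes whose mean was at or above the median gene mean. Hlth_1798 was the lowest of the chow mice in 20 of the 33 fatty acid genes and the lowest of all 30 mice in 8. Veh_low_794 was the lowest of its group in 18, and the adipocyte hormone Adipoq was at 8.27 in it and at 4.27 to 4.62 in the other mice. Mean muscle markers (4 of 4) were at 7.23 in Sulin_17 and at 4.27 to 4.46 elsewhere, and mean cholangiocyte markers (4 of 5 measured) were at 6.06 in Hlth_1807 and at no more than 4.99 elsewhere. Their part in the results was not tested beyond leaving out 1 mouse at a time, leaving out the 4 mice nearer the other diet group together, and the other fits given below.

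**Figure D1:**
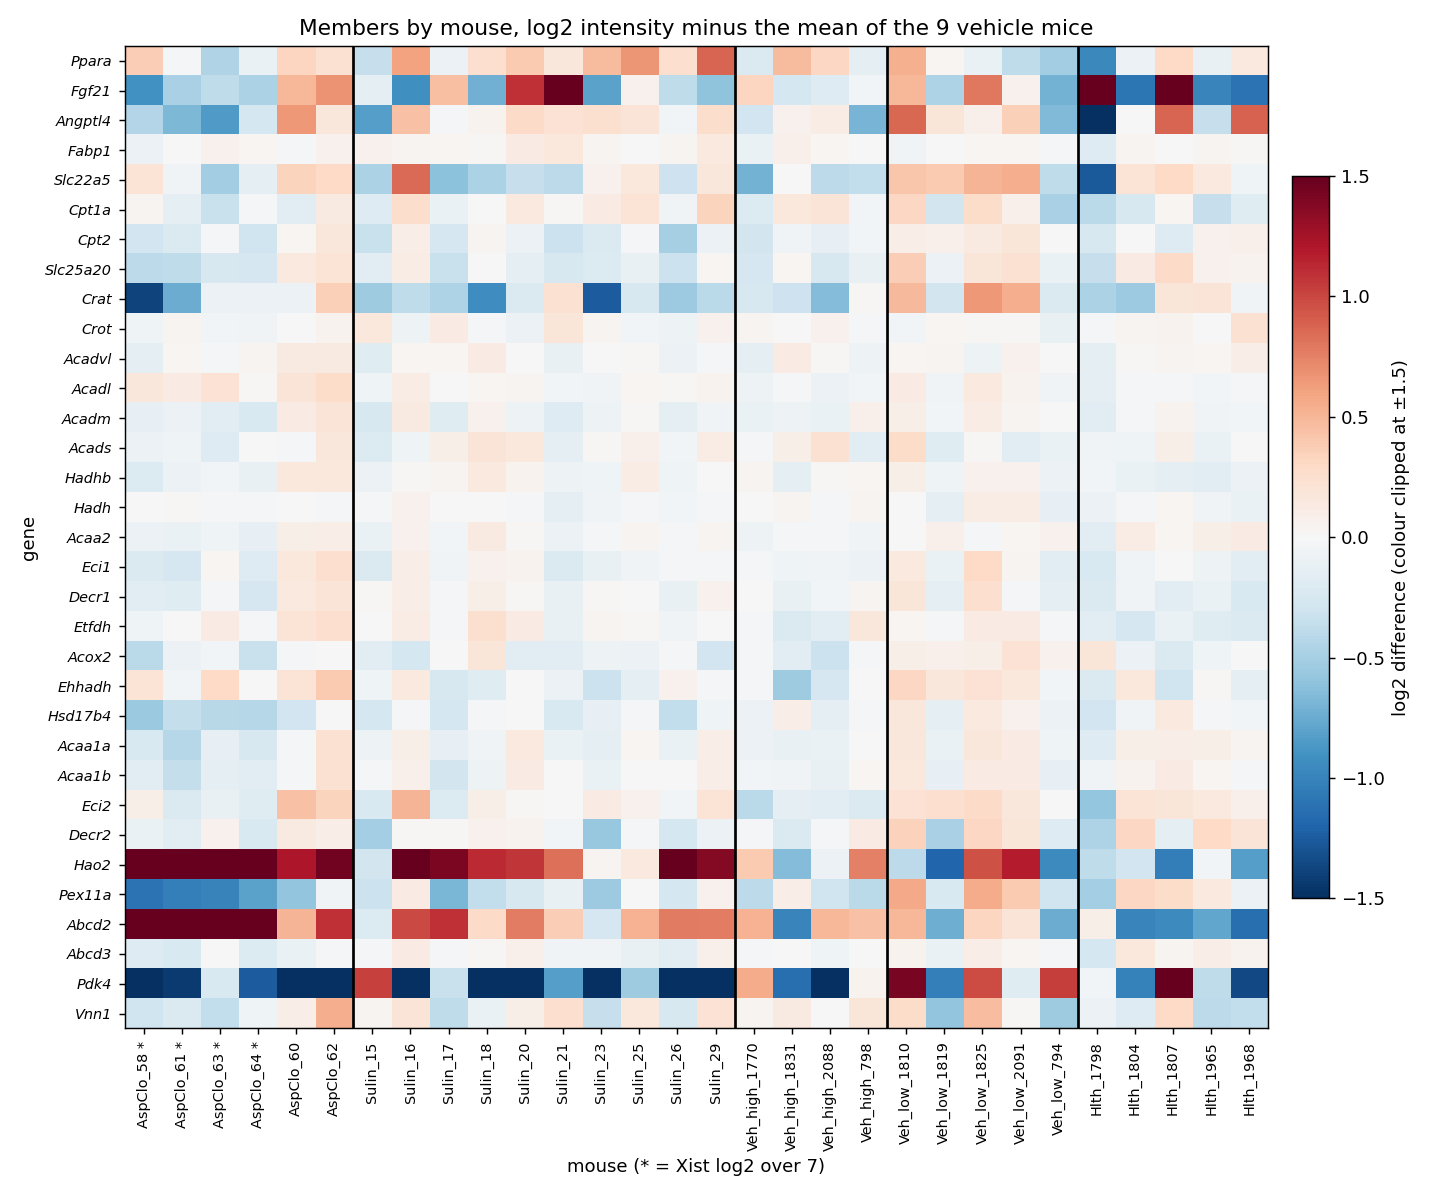
Each of the 33 genes in each of the 30 mice as the difference of its log2 intensity from the gene's mean over the 9 vehicle mice, with the colour clipped at 1.5 either way; genes run down by role and mice run across by group, aspirin with clopidogrel at the left and chow at the right, with a star on the Xist-high mice. Hao2 and Abcd2 are high in the Xist-high mice, and most other genes are lower there than in AspClo_60 and AspClo_62.

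Aspirin with clopidogrel against vehicle asked how the antiplatelet treatment altered these genes on the same diet. A total of 5 of the 33 passed the threshold (limma, Benjamini-Hochberg adjusted p under 0.05 over all 17097 genes), against a background of 1.96% of all genes. Hao2, Abcd2 and Acadl rose, and Pex11a and Hsd17b4 fell. Of the 33 differences 23 were below 0, against 49.2% of all genes, and their median was -0.036. Every change but that of Acadl was largest in the 4 Xist-high mice.

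Hao2 encodes a peroxisomal oxidase of 2-hydroxy acids. It was at 11.24, 11.21, 10.89 and 10.62 in AspClo_58, AspClo_63, AspClo_61 and AspClo_64 and at 8.0 and 7.76 in AspClo_62 and AspClo_60, against 5.37 at the lowest, 6.47 at the median and 7.73 at the highest of the 9 vehicle mice. All 6 treated mice lay above all 9 vehicle mice, which was so for 0.392% of all genes counted in either direction, and the 2 Xist-low mice lay just above the highest vehicle mouse. The mean was 9.95 ± 1.62 (SD, n = 6) with aspirin and clopidogrel and 6.55 ± 0.86 (SD, n = 9) with vehicle, a difference of 3.40 (SE 0.536) or 10.6-fold (limma adjusted p = 0.00109). Without the Xist-high mice the difference was 1.33, which did not pass.

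Abcd2 encodes a peroxisomal transporter of very long chain acyl-CoA. Its values were 8.09, 8.06, 7.87 and 7.63 in the Xist-high mice and 6.89 and 6.31 in the others given aspirin with clopidogrel, against 4.80, 6.13 and 6.32 at the lowest, median and highest of the vehicle mice. AspClo_60, at 6.31, fell inside the vehicle range, and the other 5 treated mice lay above it. The difference was 1.68 (SE 0.296, limma adjusted p = 0.00289), and all 4 of its probe sets had the same direction. Without the Xist-high mice it was 0.80 and did not pass.

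Pex11a, a membrane protein of peroxisome division, ran the other way. It was at 9.23, 9.31, 9.33 and 9.54 in the Xist-high mice and at 9.75 and 10.29 in the others, against 9.93, 10.11 and 10.91 at the lowest, median and highest of the vehicle mice. The 4 Xist-high mice and AspClo_60 lay below every vehicle mouse and AspClo_62 lay within their range. Its fall was -0.76 (SE 0.168, limma adjusted p = 0.0150), a mean of 9.57 ± 0.40 (SD, n = 6) against 10.34 ± 0.41 (SD, n = 9). Leaving out AspClo_58 or AspClo_61 ended the call (limma adjusted p = 0.0572 and 0.0536), and without the Xist-high mice the difference was -0.32.

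Hsd17b4, the peroxisomal bifunctional enzyme for branched chains and bile acid precursors, was at 11.08, 11.22, 11.22 and 11.29 in the Xist-high mice and at 11.36 and 11.64 in the others, against 11.50, 11.62 and 11.81 at the lowest, median and highest with vehicle. AspClo_62 alone reached the vehicle range. The difference was -0.34 (SE 0.076, limma adjusted p = 0.0159), it lost its call without AspClo_58 (0.0642), and it was -0.14 without the Xist-high mice.

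Acadl, the long-chain acyl-CoA dehydrogenase of mitochondria, was the exception. It was at 11.60, 11.71, 11.76 and 11.80 in the Xist-high mice and at 11.77 and 11.86 in the others, against 11.50, 11.54 and 11.73 at the lowest, median and highest with vehicle. AspClo_61 and AspClo_64 fell inside the vehicle range and the other 4 lay above it. The difference was small, 0.17 (SE 0.038) or 1.12-fold (limma adjusted p = 0.0167), and it missed the threshold without AspClo_63 (0.0507). Without the Xist-high mice it was larger, 0.23, with limma adjusted p = 0.115 over 2 treated mice.

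**Figure D2:**
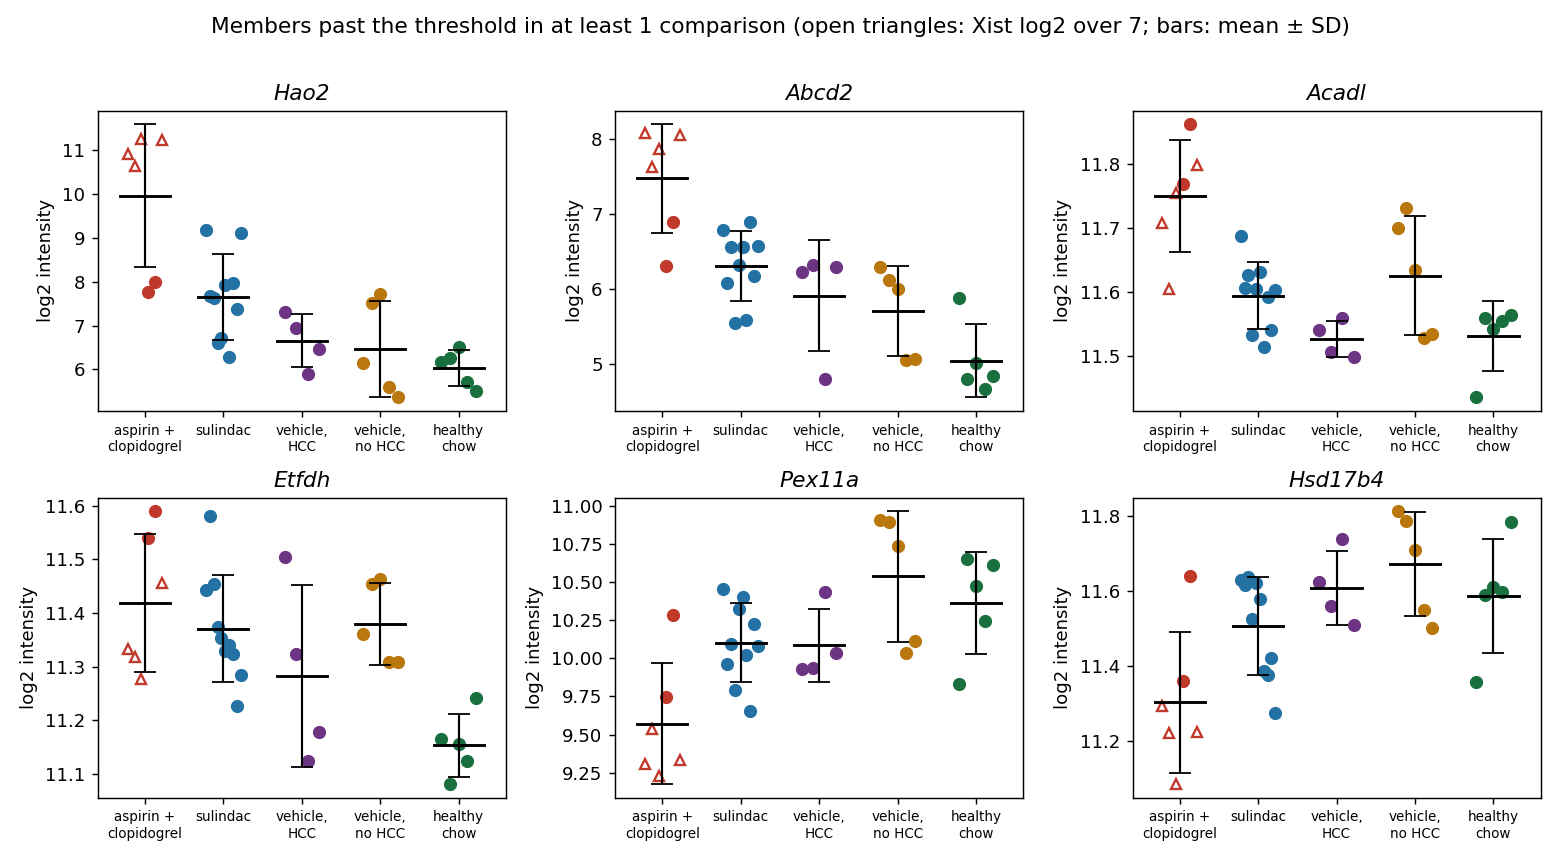
Log2 intensity of the genes that passed the threshold in any comparison, 1 point per mouse, by group from aspirin with clopidogrel at the left to chow at the right, with bars for the mean and SD and open triangles for the Xist-high mice. For Hao2 the Xist-high mice lie between 10.62 and 11.24 and all other mice at or below 9.18.

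With Xist over 7 as a term in the model, 0 of the 33 genes passed for aspirin with clopidogrel against vehicle (limma, 8 of all genes passed), as with the 4 mice left out (0, and 7 of all genes). The median of the 33 differences was then 0.13 in both fits, against -0.0053 over all genes, and 26 of 33 lay above 0. In these fits the treatment is read from 2 mice, so a missed threshold does not show that the genes were alike. At an unadjusted p under 0.05, 10 of the 33 were higher and 1 was lower with the Xist term, against 4.29% and 3.87% of all genes. Without the Xist-high mice 9 were higher and 1 was lower, against 4.15% and 3.64% of all genes.

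Among the 6 mice given aspirin with clopidogrel, 24 of the 33 genes had no overlap between the 4 Xist-high and the 2 Xist-low mice, against 24.5% of all genes. They were 21 lower in the Xist-high mice (10.6% of all genes) and 3 higher (13.9%). The difference was below 0 for 29 of 33, against 48.3% of all genes, with a median of -0.26 for the 33 and 0.0053 over all genes.

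Fgf21 was 4.35 to 4.88 in the Xist-high mice, against 5.76 and 5.93 in the Xist-low mice. Angptl4 was 8.74 to 9.33, against 9.76 and 10.24. The carnitine carrier of the inner mitochondrial membrane, Slc25a20, was 10.47 to 10.61 in the Xist-high mice, below both Xist-low mice (difference -0.49). The first 2 are secreted products and the third belongs to the carnitine shuttle.

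The medium-chain dehydrogenase Acadm was 11.80 to 11.94 in the Xist-high mice, against 12.15 and 12.22 in the Xist-low mice. The enoyl-CoA isomerases Eci1 and Eci2 differed by -0.36 and -0.50. The genes that ran higher in the Xist-high mice without overlap were Hao2 by 3.11, Abcd2 by 1.31 and Pdk4 by 0.62. Pdk4 was 5.49 to 6.88 there, against 5.31 and 5.40 in the Xist-low mice. Its difference leans on AspClo_63, at 6.88 (next 5.85), the mouse of this arm with Dbp below 7. Ppara itself overlapped, at 9.31 to 10.13 against 9.98 and 10.09. The part that sex, or any other difference between these mice, has in the treatment effect was not tested beyond the fits above, and no p is given for this split because it was chosen on these values.

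The thiolases Acaa1a and Acaa1b are near-identical genes, and the probe set used for Acaa1a is of a type that can match related transcripts, so their separate values are uncertain. They moved alike, by -0.13 and -0.11 for aspirin with clopidogrel against vehicle.

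The promoters of Hao2, which rose, and Pex11a, which fell, are shown because these genes moved in opposite directions, and that of Fabp1, the liver fatty acid binding protein, because it holds the direct repeat that PPAR-alpha and RXR bind. Each runs 5′ to 3′ on the gene's strand over 300 bases around the start of the gene, from RefSeq on GRCm38.p6. Hao2 is at chr3:98893181-98893480 on the minus strand, Pex11a at chr7:79743082-79743381 on the minus strand and Fabp1 at chr6:71199629-71199928 on the plus strand. Capitals mark a match to the direct repeat AGGNCANAGGNCA or to its half-site AGGTCA on either strand, and 1 half-site match of Fabp1 lies inside its direct repeat.
Hao2: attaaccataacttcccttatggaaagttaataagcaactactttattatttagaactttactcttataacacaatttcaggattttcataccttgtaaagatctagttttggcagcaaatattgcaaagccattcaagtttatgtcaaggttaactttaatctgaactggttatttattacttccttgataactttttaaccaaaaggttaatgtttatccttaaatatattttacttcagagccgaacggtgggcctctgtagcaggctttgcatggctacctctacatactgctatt
Pex11a: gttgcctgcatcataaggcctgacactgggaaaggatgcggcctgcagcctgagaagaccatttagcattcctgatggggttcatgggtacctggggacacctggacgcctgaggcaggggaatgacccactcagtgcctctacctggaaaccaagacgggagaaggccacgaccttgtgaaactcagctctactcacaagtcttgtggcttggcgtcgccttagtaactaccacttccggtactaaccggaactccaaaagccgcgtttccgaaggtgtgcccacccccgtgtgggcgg
Fabp1: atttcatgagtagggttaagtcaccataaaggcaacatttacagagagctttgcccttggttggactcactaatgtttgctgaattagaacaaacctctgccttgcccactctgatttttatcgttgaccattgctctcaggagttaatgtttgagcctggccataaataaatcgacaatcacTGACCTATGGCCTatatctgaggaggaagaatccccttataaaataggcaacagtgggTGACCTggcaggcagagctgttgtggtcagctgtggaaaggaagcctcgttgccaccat
Promoters of 26 of the 33 genes could be matched. The direct repeat occurred in 1 of the 26 (Fabp1) and in 0.381% of 32851 promoters, and the half-site in 4 of the 26 (Acadm, Acadvl, Cpt1a and Fabp1) and in 16.3% of all. Neither motif occurred in the Hao2 and Pex11a windows, which says only that these letters are not in those 300 bases. Fabp1 differed by 0.01 between aspirin with clopidogrel and vehicle.

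The drug arms set against each other gave 3 of 33 genes past the threshold, against 0.877% of all genes. Hao2 was higher with aspirin and clopidogrel than with sulindac by 2.31 (SE 0.525, limma adjusted p = 0.0315), Abcd2 by 1.16 (adjusted p = 0.0491) and Acadl by 0.16 (adjusted p = 0.0381). With sulindac Hao2 was 6.28 at the lowest, 7.65 at the median and 9.18 at the highest of 10 mice, so the Xist-high mice lay above all sulindac mice and the Xist-low mice, at 7.76 and 8.0, within their range. Pex11a (-0.53, adjusted p = 0.136) and the peroxisomal bifunctional enzyme Ehhadh (0.26, adjusted p = 0.162) did not pass.

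These calls rested on few mice, and leaving out a single mouse moved the count between 0 and 4. The call of Hao2 ended without any 1 of the 4 Xist-high mice, Sulin_15, Sulin_20, Sulin_23 or Sulin_25 (limma adjusted p of 0.0516 to 0.102). That of Abcd2 ended for 12 of the 16 mice, all but AspClo_60, AspClo_62, Sulin_16 and Sulin_17 (0.0507 to 0.149). That of Acadl also ended for 12 of 16, all but AspClo_64, Sulin_16, Sulin_17 and Sulin_26 (0.0512 to 0.0948).

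By limma 0 passed with the Xist term or without the Xist-high mice, with 10 and 11 of 33 at an unadjusted p under 0.05, against 10.6% and 10.3% of all genes. Without the Xist-high mice the difference of Hao2 between the drug arms was 0.24 (limma adjusted p = 0.953) and that of Abcd2 was 0.29 (adjusted p = 0.882), both far below their values over 6 mice. Acadl differed by 0.22 in both fits (adjusted p = 0.0653 and 0.0660).

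Sulindac against vehicle gave 0 of 33 genes past the threshold by limma, against 0.199% of all genes, and 6 at an unadjusted p under 0.05, against 10.4% of all genes. Of the 6, 2 were higher (5.98% of all genes) and 4 lower (4.43%). The median of the 33 differences was -0.017. The lowest limma adjusted p was 0.376, for Crat, the carnitine acetyltransferase. Crat was 6.02, 6.83 and 7.49 at the lowest, median and highest of the sulindac mice, against 6.61, 7.04 and 7.91 with vehicle, and the groups overlapped (difference -0.47, SE 0.195). Against vehicle mice without HCC alone 25 of 33 were below 0 (48.6% of all genes), with a median of -0.050. At an unadjusted p under 0.05, 8 were lower (6.22% of all genes) and 2 higher (6.28%). Against those with HCC alone 22 of 33 were above 0 (55.6% of all genes), with a median of 0.021. There 1 was higher (4.37%) and 0 lower (2.37%). By limma 0 of 33 passed against either group (0.983% and 0.0468% of all genes).

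Hao2 in sulindac mice averaged 7.64 ± 0.98 (SD, n = 10) and differed from vehicle by 1.09 (SE 0.468, limma adjusted p = 0.399). Its highest sulindac values were 9.18 in Sulin_16 and 9.11 in Sulin_26, above every vehicle mouse, while Sulin_15 at 6.28 was below the vehicle median. Abcd2 had the same sign, 0.51 (SE 0.258, adjusted p = 0.493). The comparisons of the 2 drug arms with vehicle share the vehicle mice.

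Cpt2, the inner-membrane carnitine palmitoyltransferase, was 10.45, 10.79 and 11.05 at the lowest, median and highest with sulindac, against 10.67, 10.94 and 11.13 with vehicle. The groups overlapped and the difference of -0.17 did not pass (limma adjusted p = 0.398).

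**Figure D3:**
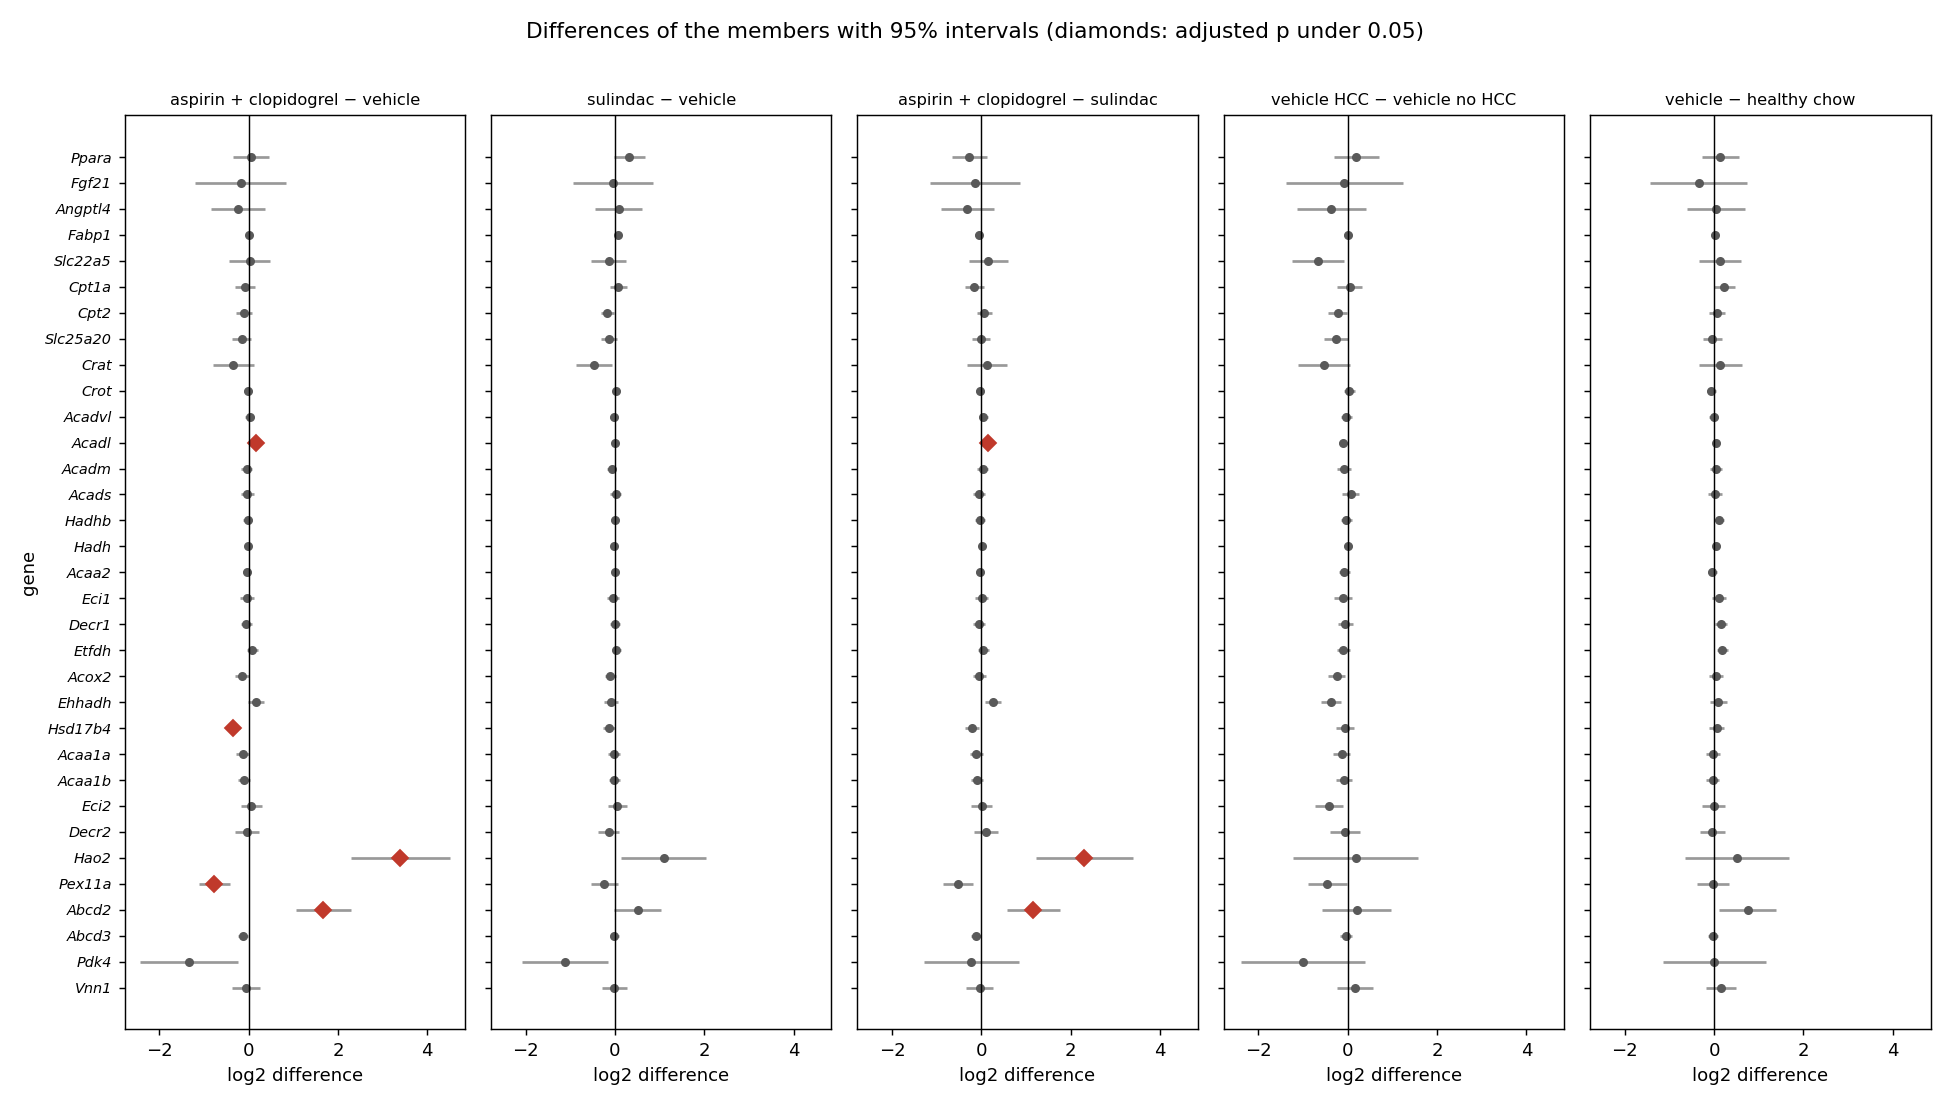
Difference of log2 means with its 95% confidence interval for each of the 33 genes, in the 5 main comparisons named above the panels; diamonds mark an adjusted p under 0.05. Diamonds stand for 5 genes for aspirin with clopidogrel against vehicle, with Hao2 at 3.40, for 3 genes against sulindac, and for 0 in the other panels.

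Ppara was 9.31, 9.86 and 10.13 at the lowest, median and highest with aspirin and clopidogrel, 9.42, 10.08 and 10.64 with sulindac, and 9.23, 9.66 and 10.30 over the 9 vehicle mice. In chow mice it was 8.79 in Hlth_1798 and 9.65 to 10.06 in the other 4. All groups overlapped. Neither aspirin with clopidogrel (0.06) nor sulindac (0.33, limma adjusted p = 0.510) differed from vehicle past the threshold, and the 3 probe sets of Ppara shared their direction with sulindac. Within each group that held both kinds of mouse, Ppara was higher where Dbp was over 7. It was 9.66 to 10.13 against 9.31 with aspirin and clopidogrel, 9.67 to 10.64 against 9.42 with sulindac, and 10.07 and 10.24 against 9.54 and 9.63 in vehicle mice with HCC. In each drug arm the lower side is 1 mouse. With sulindac it is Sulin_15, which was the lowest of its group in 11 of the 33 genes.

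Pdk4, the kinase that shuts pyruvate dehydrogenase when fatty acids are burned, ran the opposite way with Dbp. It was 5.31 to 5.85 in the 5 mice given aspirin with clopidogrel that had Dbp over 7, and 6.88 in AspClo_63, which did not. With sulindac it was 5.01 to 6.77 in 9 such mice, and 8.13 in Sulin_15. In vehicle mice with HCC it was 5.41 and 5.97 with Dbp over 7, and 7.16 and 7.65 without. Vehicle mice without HCC and chow mice, which all had Dbp below 7, ranged over 6.08 to 8.52 and 5.75 to 9.85.

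Pdk4 differed from vehicle by -1.34 with aspirin and clopidogrel (SE 0.533, limma adjusted p = 0.218) and by -1.12 with sulindac (SE 0.465, adjusted p = 0.384). Neither passed, and the groups overlapped. Without the vehicle mice that had Dbp over 7, the differences were -1.74 and -1.52 (limma adjusted p = 0.107 and 0.132). That choice widened the imbalance in Dbp between the drug arms and vehicle. For aspirin with clopidogrel, read from the 2 Xist-low mice, the difference was -1.75 with the Xist term (limma adjusted p = 0.583). With terms for both Xist and Dbp over 7 it was -0.35 (limma adjusted p = 0.969). Time of day was not recorded in the labels, so its part was not tested beyond these values.

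**Figure D4:**
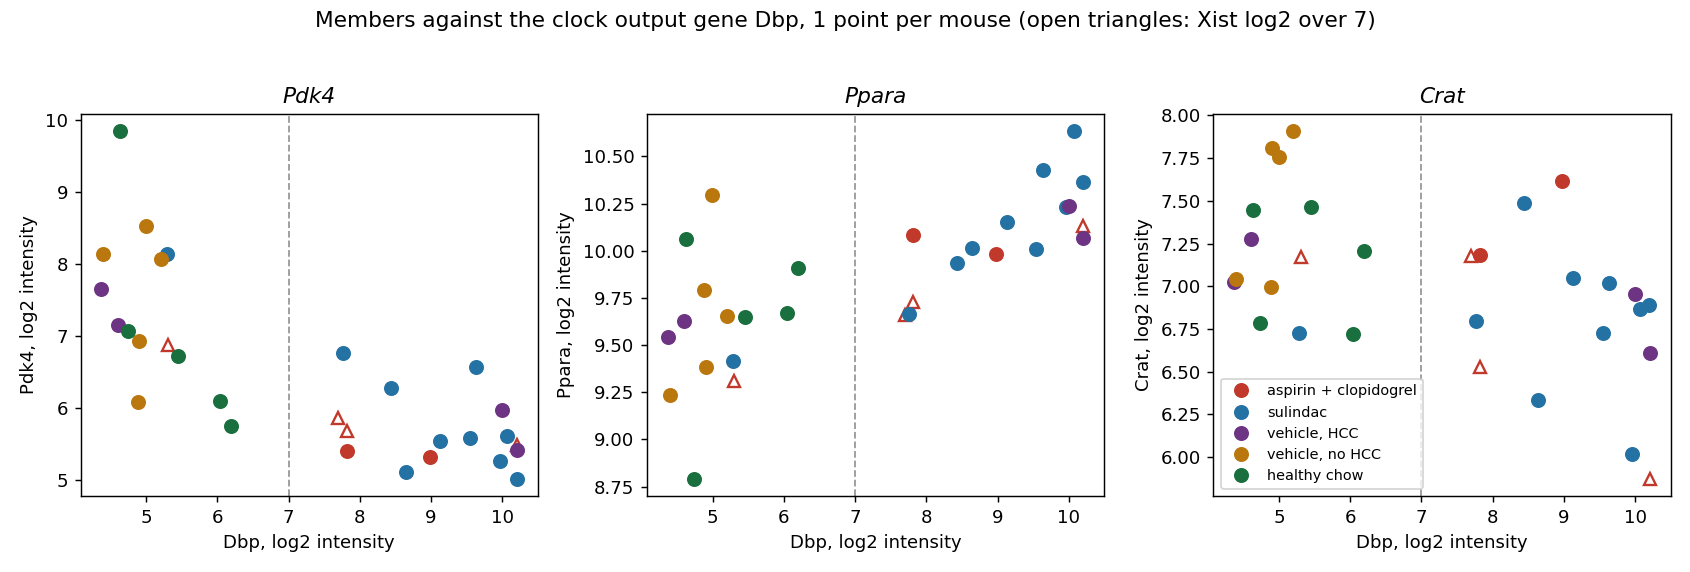
Log2 intensity of Pdk4, Ppara and Crat against that of Dbp, 1 point per mouse, coloured by group, with open triangles for the Xist-high mice and a dashed line at a Dbp of 7. Mice with Dbp over 7 have Pdk4 at 6.77 or below, and those with lower Dbp range over 5.75 to 9.85.

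Vehicle mice with HCC against those without asked whether the oxidation genes differ in liver outside the tumour. By limma 0 of 33 passed, against 0.0877% of all genes, and 7 had an unadjusted p under 0.05, all of them lower with HCC (5.53% of all genes were lower at that p). The difference was below 0 for 24 of 33, against 53.4% of all genes, with a median of -0.076 against -0.0075 over all genes. No gene of the set rose or fell past the threshold.

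Ehhadh had the smallest p. It was 11.21, 11.17, 10.94 and 10.67 in the 4 mice with HCC, against 11.51, 11.42, 11.37, 11.36 and 11.16 in the 5 without. Only Veh_low_794, at 11.16, overlapped the mice with HCC, and the difference was -0.36 (SE 0.110, limma adjusted p = 0.281).

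Eci2, the peroxisomal enoyl-CoA isomerase, was 10.28, 10.28, 10.21 and 10.02 with HCC, against 10.72, 10.69, 10.65, 10.60 and 10.43 without. Its groups did not overlap, and the difference was -0.42 (SE 0.149, adjusted p = 0.346). Acox2, the branched-chain acyl-CoA oxidase, was 10.78, 10.78, 10.66 and 10.48 with HCC, against 11.03, 10.90, 10.90, 10.89 and 10.88 without, again with no overlap. Counting Cpt2 (-0.22), 3 of 33 genes had no overlap and all 3 were lower with HCC, against 1.98% of all genes.

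Slc22a5, the carnitine transporter of the plasma membrane, was 8.24, 7.87, 7.85 and 7.54 with HCC, against 8.78, 8.75, 8.66, 8.63 and 7.86 without. Veh_low_794 again lay among the mice with HCC, and the difference of -0.66 (SE 0.282) had a limma adjusted p of 0.465. The 10 genes of mitochondrial beta-oxidation differed by -0.11 (Eci1) to 0.07 (the short-chain dehydrogenase Acads), and of the carnitine shuttle Slc25a20 differed by -0.26.

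Without the 4 mice that lay nearer the other diet group, 31 of the 33 differences with HCC were below 0. Their median was -0.20, against -0.0085 over all genes. Of the vehicle mice this leaves out Veh_low_794 and Veh_low_1819, the lowest without HCC in 18 and 12 of the 33 genes. Leaving them out lowers these differences by construction. That comparison had 3 mice without HCC, and by limma 0 passed, with 13 at an unadjusted p under 0.05, against 8.39% of all genes (lowest adjusted p = 0.153, for Pex11a at -0.76). With Dbp over 7 as a term 28 of 33 were below 0 with a median of -0.10, against -0.013 over all genes. By limma 0 passed in that fit, with 6 at an unadjusted p under 0.05, against 7.93% of all genes.

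Vehicle on CD-HFD against chow showed 0 of 33 genes past the threshold by limma, against 0.0117% of all genes, and 3 at an unadjusted p under 0.05, all higher on CD-HFD (3.66% of all genes were higher at that p). The median difference was 0.045. The 3 genes were Etfdh, Abcd2 and Decr1, and 22 of 33 differences lay above 0, against 51.8% of all genes.

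Etfdh, which passes electrons of beta-oxidation to the respiratory chain, was 11.50, 11.32, 11.18 and 11.12 in vehicle mice with HCC and 11.46, 11.45, 11.36, 11.31 and 11.31 in those without, against 11.24, 11.17, 11.16, 11.12 and 11.08 on chow. The mice without HCC all lay above the chow mice and those with HCC overlapped them. The difference of 0.18 (SE 0.061) did not pass (limma adjusted p = 0.517).

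Decr1, the mitochondrial dienoyl-CoA reductase, was 11.65, 11.61, 11.57 and 11.49 in vehicle mice with HCC and 11.86, 11.79, 11.58, 11.47 and 11.47 in those without, against 11.56, 11.51, 11.45, 11.39 and 11.38 on chow. The groups overlapped and the difference was 0.15 (limma adjusted p = 0.704). Abcd2 was 0.75 higher on CD-HFD (adjusted p = 0.657), with Hlth_1798 at 5.88 and the other chow mice at 4.66 to 5.02.

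Cpt1a, the outer-membrane carnitine palmitoyltransferase that sets the rate of entry to mitochondria, was 11.41, 11.37, 11.16 and 11.01 in vehicle mice with HCC and 11.53, 11.48, 11.29, 10.93 and 10.72 in those without, against 11.24, 11.02, 10.98, 10.87 and 10.80 on chow. In the mice without HCC the low values came from Veh_low_1819 and Veh_low_794, where 10.93 lay within the chow range and 10.72 below it. The difference of 0.23 did not pass (limma adjusted p = 0.762), and without the 4 mice nearer the other diet group it was 0.36 and passed (adjusted p = 0.0464, with 5.61% of all genes). Those mice were chosen by their distance to the diet means, which raises diet counts by construction.

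**Figure D5:**
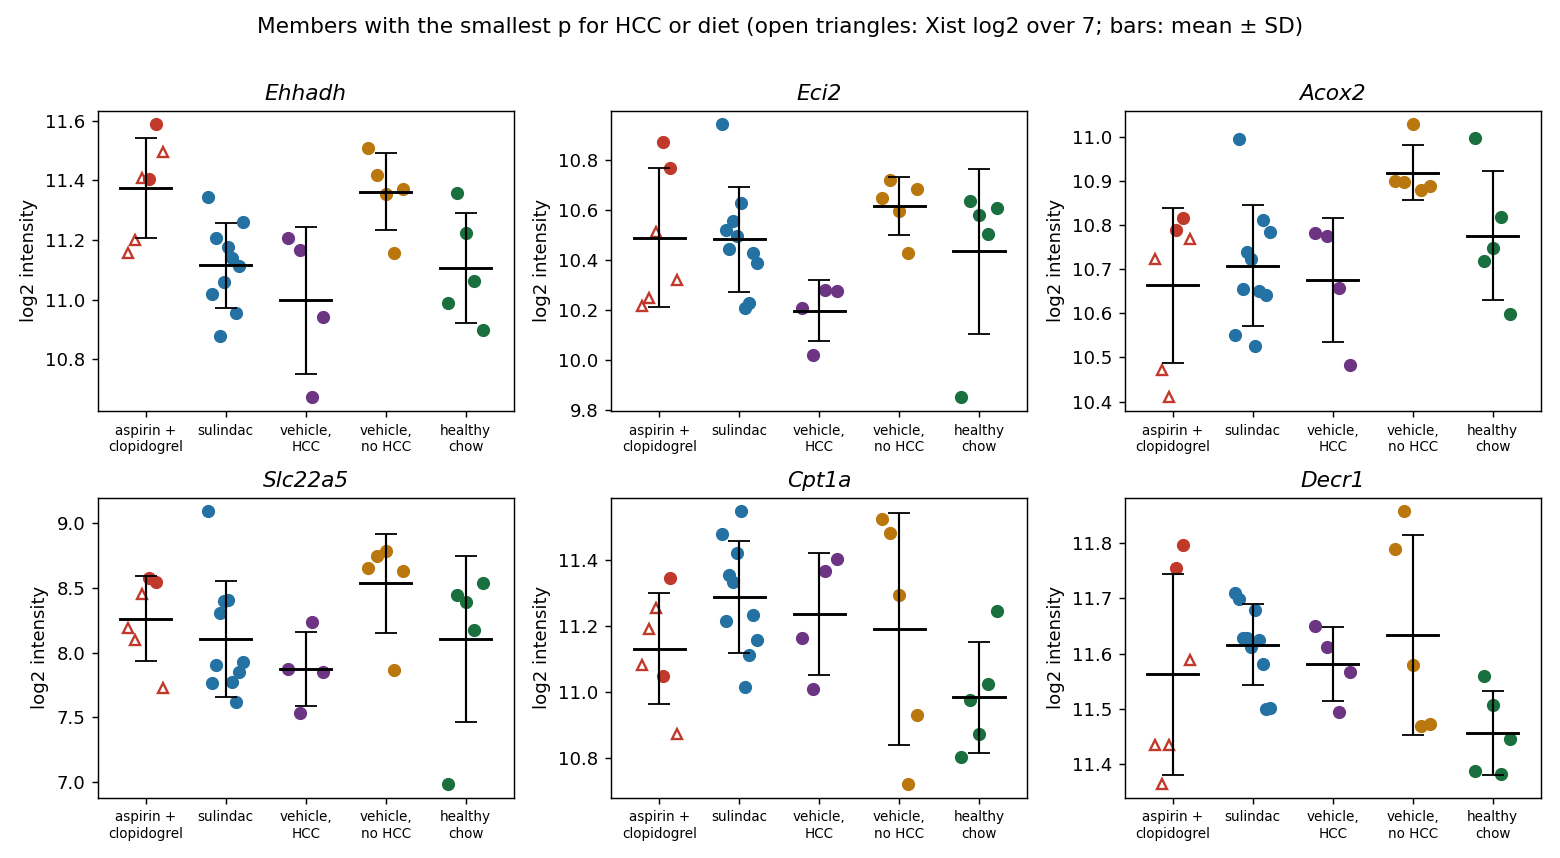
Log2 intensity of Ehhadh, Eci2, Acox2, Slc22a5, Cpt1a and Decr1, 1 point per mouse, by group from aspirin with clopidogrel at the left to chow at the right, with bars for the mean and SD and open triangles for the Xist-high mice. For Eci2 the vehicle mice with HCC lie between 10.02 and 10.28 and those without between 10.43 and 10.72.

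Against chow, sulindac mice had 2 of 33 genes past the threshold, against 2.98% of all genes. Abcd2 was higher by 1.27 (SE 0.307, limma adjusted p = 0.0203), at 5.54, 6.44 and 6.90 at the lowest, median and highest with sulindac. Hlth_1798 at 5.88 overlapped it. Etfdh was higher by 0.22 (adjusted p = 0.0436), at 11.23, 11.35 and 11.58, where Hlth_1807 at 11.24 overlapped. The call of Etfdh ended when any 1 of 12 of the 15 mice was left out, all but Hlth_1807, Sulin_21 and Sulin_26 (limma adjusted p of 0.0510 to 0.119, and 0.0539 without Hlth_1798). That of Abcd2 ended without Hlth_1804, Hlth_1965 or Hlth_1968 (0.0568, 0.0548 and 0.0731).

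Aspirin with clopidogrel had 5 of 33 past the threshold against chow, against 2.77% of all genes. Hao2 was higher by 3.92, Abcd2 by 2.43, Acadl by 0.22 and Etfdh by 0.27, and Pex11a was lower, at -0.79 (limma adjusted p between 0.00019 and 0.0240). The 4 higher genes did not overlap chow, while 1.19% of all genes were higher without overlap. The call of Pex11a ended without AspClo_58, AspClo_61, Hlth_1804, Hlth_1807 or Hlth_1965 (limma adjusted p of 0.0562 to 0.0637), and that of Etfdh without Hlth_1804, Hlth_1965 or Hlth_1968 (0.0533 to 0.0642). Without the Xist-high mice 2 passed, against 0.216% of all genes, Etfdh at 0.41 (adjusted p = 0.0374) and Acadl at 0.28 (adjusted p = 0.0278). Hao2 was then at 1.84 (adjusted p = 0.405), Abcd2 at 1.56 (adjusted p = 0.200) and Pex11a at -0.35 (adjusted p = 0.828).

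The arms and the vehicle mice share the chow mice in these comparisons, and against chow the vehicle mice with HCC gave 0 of 33 (0.0994% of all genes) and those without HCC 0 of 33 (0% of all genes) by limma, with 1 and 4 of the 33 at an unadjusted p under 0.05, against 9.26% and 5.32% of all genes.

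Of 44 other genes of PPAR-alpha action and fatty acid handling 34 were measured. For aspirin with clopidogrel against vehicle 1 of them passed, against 1.96% of all genes. It was the peroxisomal thioesterase Acot3, at 11.38, 10.60, 10.33 and 10.27 in the Xist-high mice and 10.05 and 8.67 in the others, against 5.72 to 9.35 with vehicle (difference 2.92, SE 0.740, limma adjusted p = 0.0349). AspClo_60 lay inside the vehicle range. For the drug arms against each other Acot3 was again the 1 of 34 that passed, at 3.07 (limma adjusted p = 0.0379), against 0.877% of all genes. For sulindac, HCC and diet 0 of 34 passed by limma, with 2, 5 and 3 at an unadjusted p under 0.05, against 10.4%, 8.87% and 6.73% of all genes. The 5 for HCC were all lower, among them the 2-hydroxyacyl-CoA lyase Hacl1 (-0.91, adjusted p = 0.0996) and the thioesterase Acot1 (-2.22, adjusted p = 0.277).

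A list of 19 genes held partners and coregulators of PPAR-alpha and also the related receptor Pparg, and 15 of them were measured. For aspirin with clopidogrel against vehicle 1 of them passed, against 1.96% of all genes. Pparg, the PPAR of adipocytes and lipid storage, differed by -1.13 between aspirin with clopidogrel and vehicle (SE 0.171, limma adjusted p = 0.000924). It was 6.14 to 6.66 in the treated mice, against 6.64 to 8.31 with vehicle, so only AspClo_64 and Veh_low_1819 met. The 2 Xist-low mice, at 6.23 and 6.44, lay with the Xist-high ones. No partner or coregulator on the list passed in this comparison. By limma 0 genes of the list passed for HCC, diet, sulindac and the drug arms set against each other. At an unadjusted p under 0.05 these comparisons had 4, 1, 4 and 4, against 8.87%, 6.73%, 10.4% and 10.8% of all genes.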

How the data were processed

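Each mouse has 1 Affymetrix HT MG-430 PM array of RNA from liver outside tumours, per the labels. The deposited intensity values, 1 per probe set, were made by the authors with RMA and quantile normalization, per the submitters' processing notes and the series' design text. No version of RMA is stated in those sources. They are linear, so log2 was taken. Array medians lay between 24.1 and 24.6, minima between 13.8 and 14.8, and the number of arrays limits the precision.

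Of 45141 probe sets 28898 carry 1 gene symbol, 551 several and 15588 none, and 104 are controls. Symbols were updated through Entrez identifiers for 28689 probe sets (RefSeq, GRCm38.p6), and 209 identifiers were not matched. Of the 33 genes described, 14 have several probe sets, and 32 have a mean no lower than the median over all genes, 4.90. No gene was filtered.

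Group means over 30 arrays were fitted with limma 3.58.1 (R 4.3.3; 25 residual and 2.37 prior degrees of freedom), with the vehicle mean over 9 mice and Benjamini-Hochberg adjustment over 17097 genes within each comparison. On simulated data with 200 genes changed by a log2 difference of 1, the fit recovered 92.5% (HCC), 94.0% (diet), 96.0% (sulindac), 93.5% (aspirin with clopidogrel) and 96.5% (aspirin with clopidogrel against sulindac). In the data only 15 (HCC), 2 (diet) and 34 (sulindac) genes passed, so the adjusted threshold was stricter there and these shares can be too high. With sulindac, Pdk4 and Hao2 differed from vehicle by more than 1 in size and did not pass.

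Values by mouse are given for Ppara, for genes past an adjusted p of 0.05 in any comparison and for the 4 with the smallest p in each of the 5 main ones. The members, lists and tests were chosen with earlier results of these data known. The labels were followed for the vehicle mice, where the design text gives 4 and the labels 9. Alternatives were other fits and probe set rules, left-out mice, and terms for Xist or Dbp over 7 that were added after seeing the data.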

Additional observations from a re-analysis of the deposited data

Results flagged for a closer look

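Each of the 33 genes was checked for a mouse far from the others of its group, and 13 of 165 group values were marked; chance alone marks about 1 in 20 groups. Hlth_1798 gave 5 of the 13, each the lowest chow value. They were Fabp1 at 12.89 (next 13.09), Slc22a5 at 6.99 (next 8.18), Acadl at 11.44 (next 11.54), Acaa1a at 12.39 (next 12.62) and Eci2 at 9.85 (next 10.50). This mouse also had the highest mean of the macrophage markers among all 30 mice, 9.16 over 8 of 8 genes.

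Slc22a5 stood apart in 2 more groups, at 9.09 in Sulin_16 (next 8.41) and at 7.86 in Veh_low_794 (next 8.63). Angptl4 was low in Sulin_15, at 8.76 (next 9.55), the sulindac mouse with Dbp below 7. Pdk4 was high in AspClo_63, at 6.88 (next 5.85), the mouse given aspirin with clopidogrel that had Dbp below 7. Among vehicle mice with HCC, Acadm was high in Veh_high_798 at 12.11 (next 11.95), Hadhb was low in Veh_high_1831 at 11.41 (next 11.56), and Abcd2 was low in the same mouse at 4.80 (next 6.23). Acox2 was high in Veh_low_2091, at 11.03 (next 10.90).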

How the results depend on the processing

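Values are differences of log2 means or numbers of the 33 genes past the threshold. For aspirin with clopidogrel against vehicle, where 5 passed, 2 passed in a fit of only the groups compared (0.649% of all genes). Against vehicle mice with HCC alone 3 passed (0.918% of all genes). With Xist as a term, without the Xist-high mice, or with Xist and Dbp as terms 0 passed (0.0468%, 0.0409% and 0.0409% of all genes). The median in these 3 fits was 0.13, 0.13 and 0.11. Leaving out 1 mouse gave 3 to 5. For aspirin with clopidogrel against sulindac, where 3 passed, 1 passed with only the groups compared (1.4% of all genes) and 1 with trend and robust eBayes (0.772%). With array weights 5 passed (2.38% of all genes). In the same 3 fits for Xist 0 passed (0.351%, 0.298% and 0.433% of all genes), and the median was 0.16, 0.16 and 0.17. Leaving out 1 mouse gave 0 to 4.

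The HCC median was -0.20 without the 4 mice nearer the other diet group, a choice that lowers it by construction. The diet count was 1 with array weights (Etfdh, with 2.19% of all genes) and 1 without those 4 mice (Cpt1a, with 5.61% of all genes). Against chow, vehicle with HCC had 1 with array weights (Abcd2, with 3.91% of all genes). Vehicle without HCC had 1 without the 4 mice (Cpt1a, with 2.95% of all genes). Sulindac against chow had 1 with arrays centred on their medians (2.73% of all genes). It had 4 without the 4 mice (where 7.76% of all genes passed, against 2.98%), and 0 to 2 when 1 mouse was left out. Aspirin with clopidogrel against chow had 2 with only the groups compared (0.433% of all genes), 2 with Xist as a term (0.211%) and 2 without the Xist-high mice (0.216%). The median was 0.20 in the last 2 fits, and leaving out 1 mouse gave 3 to 7.

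Of the counts and medians recomputed, 351 stayed close to the values reported, 40 counts were lower and 6 higher by over 1.5 times, and 9 medians moved. A median was called close if it shifted by less than 0.096, the spread between mice of the member median. That is more than the size of every median in the main fits, so a median could change sign and still be called close. A count of 0 that stayed at 0 was also called close. The tally therefore says little about how stable the medians were. No sign of a called gene turned. No paired analysis was possible because animal numbers are unique to each mouse. With groups of 4 to 10 arrays, a log2 difference of 0.5 was recovered in simulation for 47.5% (HCC) to 73.0% (sulindac) of 200 changed genes. Fewer genes passed in the data for these comparisons, so these shares can be too high for them.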

Other observations

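The thioesterase genes Acot1 and Acot2, which lie outside the set, divided the mice given aspirin with clopidogrel as most of the oxidation genes did. Acot3 divided them the other way, higher in the Xist-high mice. Acot1 was 6.30 to 7.57 in the 4 Xist-high mice and 9.04 and 9.81 in the 2 Xist-low mice, and Acot2 was 6.16 to 7.53 against 9.10 and 9.76. In vehicle mice with HCC Acot1 was 5.96 to 7.54 and Acot2 was 5.96 to 7.67, against 8.05 to 9.18 and 7.71 to 9.16 in those without HCC, with no overlap. These genes are close copies of each other, so their separate values are uncertain, and they were chosen after their values were seen. The microsomal omega-hydroxylase Cyp4a10 was 11.39 to 11.99 in the Xist-high mice and 12.32 and 12.47 in the Xist-low mice, against 11.57 to 12.03 in the 9 vehicle mice.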
